A study of Mus musculus with 4 samples.

Results

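The 10 genes described here encode proteins of cell junctions, cell polarity and membrane scaffolds: Scrib, Mllt4, Magi3, Pvrl3, Amotl1, Ank2, Grip1, Rapgef1, Mark2 and Plec. They were chosen by name, with their deposited splicing and expression values already known, from the 1815 genes that appear in either deposited table of a study of the mouse testis. Whole testes were taken at postnatal day 25 from male C57BL/6 mice, of which 2 were wild type (WT) and 2 carried a conditional knockout (cKO) of Ptbp2, and 1 RNA-seq library was made per mouse. The product of Ptbp2 binds pyrimidine-rich RNA and regulates alternative splicing, and the study's title ties its splicing network to cell communication in spermatogenesis. Neither the Cre driver nor the testis cells that lost Ptbp2 are stated in the labels.

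A germ cell develops while held by Sertoli cells, the somatic nurse cells of the seminiferous tubule. Near the base of the tubule, neighbouring Sertoli cells seal the blood-testis barrier with tight junctions and an actin-based adherens junction called the basal ectoplasmic specialization. Near the lumen, an apical ectoplasmic specialization holds the head of each elongating spermatid. There nectin-3, the product of Pvrl3 on the spermatid, binds nectin-2 on the Sertoli cell, and afadin, the product of Mllt4, joins nectins to actin. Polarity proteins and PDZ scaffolds place such contacts within the cell.

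The splicing table lists 12 events in 7 of the 10 genes, and the expression table lists 5 of them. Grip1 and Magi3 are in both tables. Scrib, Mllt4, Rapgef1, Mark2 and Plec have splicing events only, and Pvrl3, Amotl1 and Ank2 have expression values only. For the genes outside a table no value was analysed, which does not mean that they were unchanged.

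Splicing was given as ΔPSI, the difference between the genotypes in the percentage of transcripts that include a segment (percent spliced in), with 1 value per event for all libraries together. The file headers do not say which genotype was subtracted, so a negative ΔPSI cannot be read here as more or less inclusion. No replicate value, coverage or p-value comes with an event, and no error can be attached to it. Whole testes were used, so a shift in splicing within cells and a shift in the mix of cells cannot be told apart in ΔPSI.

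The single cassette exons with the largest absolute ΔPSI in 6 of the 7 spliced genes are shown first, because they are the pieces of coding sequence by which isoforms of each protein differ. Each was found in the GENCODE M21 annotation (build GRCm38) by its gene, its length and, where a gene has several events, the spacing between them, and its sequence was read from the annotated transcript. Capitals mark the alternative exon, and the 15 bases on either side in lower case belong to the neighbouring exons. For Magi3 the capitals mark only the coding bases of the exon, and the 3 bases after them are its stop codon.
Rapgef1 258-nt exon, GRCm38 chr2:29719593-29719850, plus strand: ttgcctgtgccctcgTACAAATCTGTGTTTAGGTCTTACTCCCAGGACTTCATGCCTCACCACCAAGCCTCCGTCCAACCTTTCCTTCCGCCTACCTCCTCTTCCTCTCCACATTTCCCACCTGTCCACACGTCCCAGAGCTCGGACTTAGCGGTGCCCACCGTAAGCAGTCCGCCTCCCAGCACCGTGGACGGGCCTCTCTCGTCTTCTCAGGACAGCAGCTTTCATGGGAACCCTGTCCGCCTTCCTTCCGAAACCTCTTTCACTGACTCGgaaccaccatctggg
Grip1 195-nt exon, GRCm38 chr10:120038599-120038793, plus strand: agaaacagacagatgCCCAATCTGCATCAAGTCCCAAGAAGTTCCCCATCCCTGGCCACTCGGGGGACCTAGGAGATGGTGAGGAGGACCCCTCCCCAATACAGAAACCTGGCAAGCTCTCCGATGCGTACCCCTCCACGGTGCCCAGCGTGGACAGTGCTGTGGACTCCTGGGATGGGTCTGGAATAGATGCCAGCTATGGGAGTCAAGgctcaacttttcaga
Mllt4 45-nt exon, GRCm38 chr17:13825943-13825987, plus strand: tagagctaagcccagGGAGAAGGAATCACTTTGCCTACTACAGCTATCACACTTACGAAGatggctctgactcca
Plec 15-nt exon, GRCm38 chr15:76194559-76194573, minus strand: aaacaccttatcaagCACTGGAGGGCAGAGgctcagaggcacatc
Magi3 coding part of the 91-nt exon, GRCm38 chr3:104016646-104016692, minus strand: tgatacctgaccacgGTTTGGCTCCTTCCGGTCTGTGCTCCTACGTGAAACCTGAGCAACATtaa
Mark2 27-nt exon, GRCm38 chr19:7279986-7280012, minus strand: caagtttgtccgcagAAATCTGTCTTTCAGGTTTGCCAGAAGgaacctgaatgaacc

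All 12 events of these genes had a negative ΔPSI, where 59.4% of the 1223 events of the whole table were negative. Of the 12, 9 reached 20 points in size, against 21.0% of the table. Because the genes were chosen on these values, the counts describe the choice and nothing is read from them. The 9 single cassette exons, which are exons included or skipped as a unit, had ΔPSI values from -60 to -7 percentage points with a median of -44, and all 741 cassette events of the table had a median of -1.

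Exon length and frame belong to the values listed for these genes when they were chosen, and are given as a description. A length divisible by 3 leaves the reading frame intact whether the exon is in or out. Of the 9 cassette exons, 8 were of such a length (88.9%), where the table as a whole had 55.7%. Among the cassette events of 20 points or more, the share was 6 of 7 in these genes and 69.1% of 165 in the table. No test was run, since large events were the ones chosen and they keep frame more often in this table. The 9 exons ran from 15 to 258 nt with a median of 75 nt, against a median of 100 nt for all cassettes.

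**Figure D1:**
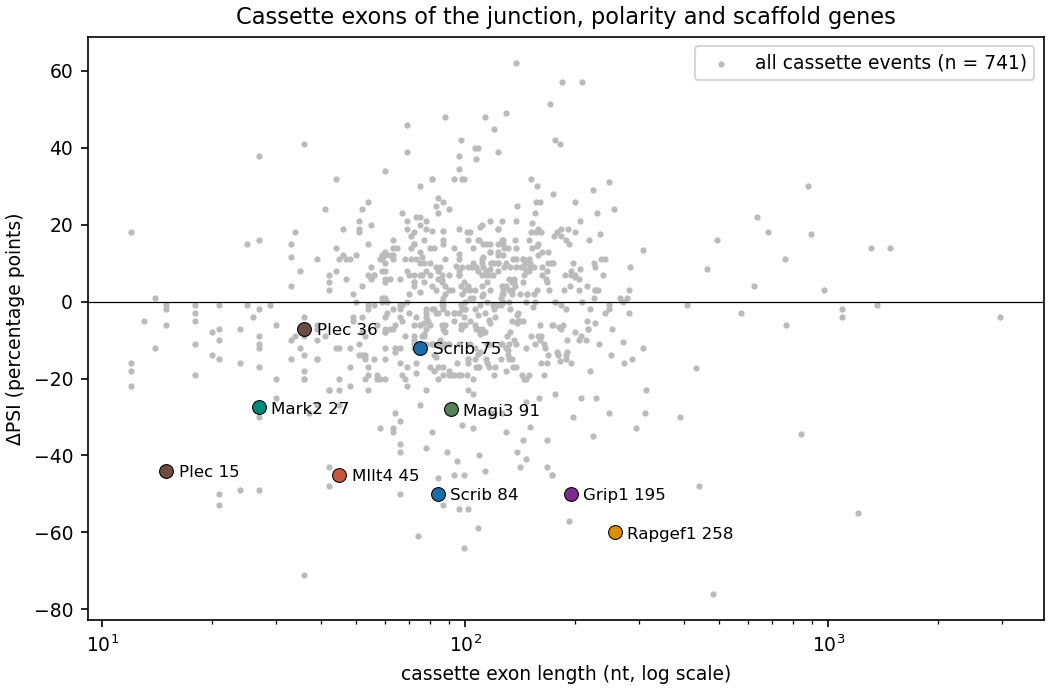
ΔPSI in percentage points (vertical axis) against exon length in nt on a log scale (horizontal axis) for the 741 cassette events of the table (grey) and the 9 cassette exons of these genes (coloured, with gene and length in nt). All 9 lie below 0, from the Plec 36-nt exon at -7 to the Rapgef1 258-nt exon at -60.

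Scrib and Mark2 act in cell polarity. Scrib encodes Scribble, a scaffold with leucine-rich repeats and PDZ domains that works with the Dlg and Lgl proteins to set the basolateral side of epithelial cells. Its 84-nt exon had a ΔPSI of -50 and a second one of 75 nt (mm9 chr15:75878352-75878426) had -12. The events differ in size, but without an error on either the difference is not tested. The 84-nt exon adds 28 codons after codon 1289 of the 1665-codon annotated reading frame, and the 75-nt exon adds 25 codons after codon 1575. Both thus lie in the carboxy-terminal part of the protein.

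Mark2 encodes Par-1b, a kinase that phosphorylates microtubule-associated proteins and marks the lateral membrane domain of polarised cells. Its 27-nt cassette exon (mm9 chr19:7354476-7354502) had a ΔPSI of -27.5. The same exon was listed again as a mutually exclusive exon at -9, and as part of a tandem cassette (mm9 chr19:7353601-7354502) at -33. These 3 entries share 1 exon and are not separate observations of the gene. The boundaries of the tandem cassette coincide with those of the 27-nt exon and the next coding exon, of 168 nt, which also keeps the frame. Annotated protein-coding transcripts of Mark2 include the 27-nt exon in 6 of 17 cases and skip it in 6, while 5 skip the pair. It adds 9 codons after 587 of the 731 codons of the longest complete annotated reading frame that holds it.

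Mllt4 and Pvrl3 belong to the nectin adhesion system. The 45-nt exon of Mllt4 (mm9 chr17:13962950-13962994) had a ΔPSI of -45. It adds 15 codons at 21.5% of the coding length of the annotated transcript, so it falls in the amino-terminal part of afadin. GENCODE includes it in 3 protein-coding transcripts and skips it in 2. Pvrl3, whose product afadin binds, has no event in the splicing table, and its expression is given below.

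Among the scaffolds, Grip1 and Magi3 carry several PDZ domains, which bind the tails of membrane proteins. Grip1 was first studied as a partner of glutamate receptors and also acts in epithelial adhesion. Its 195-nt exon (mm9 chr10:119475655-119475849) had a ΔPSI of -50 and adds 65 codons at 67.0% of the coding length. Of 12 annotated protein-coding transcripts, 11 include it and 1 skips it.

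Magi3 encodes a membrane-associated guanylate kinase with an inverted domain order. Its 91-nt exon (mm9 chr3:103820525-103820615) had a ΔPSI of -28 and is the exception in frame. It holds 47 coding bases followed by the stop codon and 41 noncoding bases. The annotated transcript that includes it has 1126 codons, while the one that skips it has 1476. In the transcript that includes it, the exon begins after 1110 codons and ends the reading frame. Its inclusion therefore goes with a shorter protein and a different carboxy terminus, and does not insert a segment. Each state rests on 1 annotated protein-coding transcript.

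Rapgef1 encodes a guanine nucleotide exchange factor that activates the small GTPase Rap1 at cadherin and nectin contacts. Its 258-nt exon (mm9 chr2:29575113-29575370) had a ΔPSI of -60, the most negative of these genes, and 5 of the 741 cassettes in the table had a larger absolute value. The exon adds 86 codons at 55.6% of the coding length. A tandem cassette of the same gene (mm9 chr2:29565673-29576258) had -34.5 and spans this exon, so the entries overlap. Its boundaries match a 156-nt exon at one end and a 96-nt exon at the other, and all 3 lengths are divisible by 3. Pyrimidines make up 65.9% of the bases of the 258-nt exon, the highest share of the 9 cassettes, which otherwise ranged from 26.7% in the Plec 15-nt exon to 59.3% in Magi3. The share in the other cassettes of the table was not computed, and a relation of exon composition to ΔPSI was not tested.

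Plec encodes plectin, a large linker of intermediate filaments to actin, hemidesmosomes and other membrane sites. Its 15-nt exon (mm9 chr15:76024989-76025003) had a ΔPSI of -44 and its 36-nt exon (mm9 chr15:76024396-76024431) had -7. Both exons lie near the amino terminus, at 4.3% and 2.7% of the coding length of their annotated transcripts, in the region of the actin-binding domain. The transcripts used for them start at different first exons, so their positions are not on a common scale. They add 5 and 12 codons. The 15-nt exon is in 11 of 21 annotated protein-coding transcripts and is skipped in 9, whereas 5 hold the 36-nt exon and 13 skip it.

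**Figure D2:**
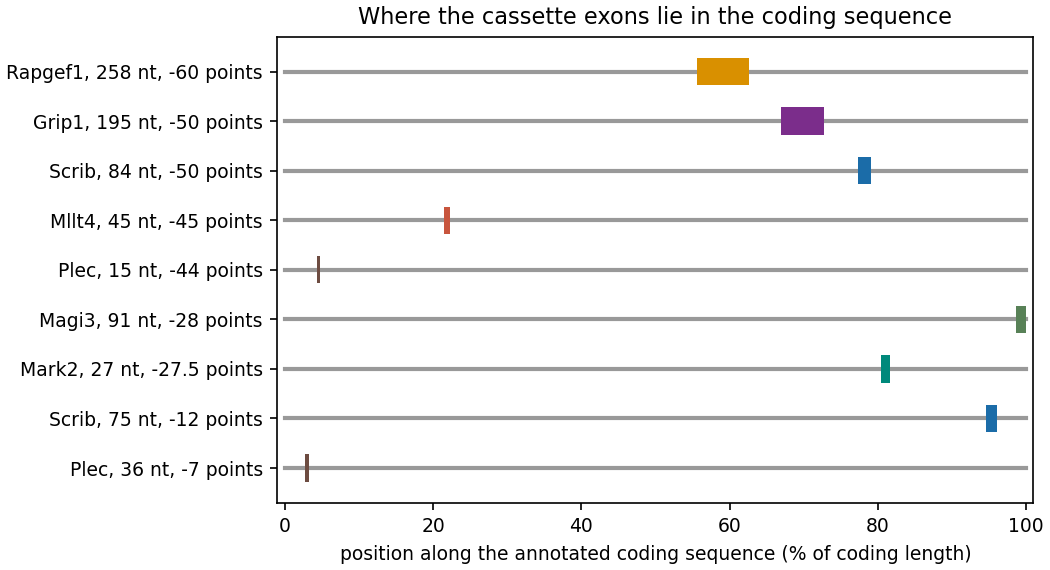
Position of each of the 9 cassette exons (coloured block, drawn to its coding length with a minimum width for visibility) along the annotated coding sequence (grey line, percent of coding length), with the gene, exon length and ΔPSI on the left. The exons of Plec and Mllt4 lie at 2.7% to 21.5% of the coding length and the others at 55.6% or later, with Magi3 at the very end.

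The exons meet the reading frame at different places. Those of Scrib, Rapgef1 and Plec begin at a codon boundary. The exons of Mllt4, Grip1 and Magi3 begin after the first base of a codon, and that of Mark2 after the second. All 9 cassettes are annotated in GENCODE in both states, with at least 1 protein-coding transcript that includes the exon and at least 1 that skips it.

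Expression was given as RPKM, which divides reads by gene length and by the size of the library, so levels may be compared between genes. The table holds only the 988 genes that the authors listed as differentially expressed, 925 of them lower and 63 higher in cKO. Ptbp2 itself had 65.7 and 66.6 RPKM in WT, but 111 and 98.2 RPKM in the libraries labelled cKO, so whole-gene RPKM does not check the labels and "labelled cKO" is kept below. Of the 20 genes of the spermatid list, 15 are in the table, all 15 listed as lower. Their summed level was 1567 RPKM in WT library 1, 2166 in WT library 2, 230.1 in labelled cKO library 1 and 81.9 in labelled cKO library 2. Abundant genes weigh most in these sums, and the size of the fall differed between the 15. Their median log2 ratio to the WT mean was -2.54 in labelled cKO library 1 and -5.20 in labelled cKO library 2. Prm1, a protamine gene among the 15, had 253 and 411 RPKM in WT and 19.1 and 4.16 RPKM in the libraries labelled cKO. Markers of other cells in the table were 2 of 12 spermatocyte genes (both listed as lower), 1 of 14 Sertoli genes, 1 of 8 Leydig genes, 3 of 10 macrophage genes (all 5 of these listed as higher), and 1 of 6 myoid genes (listed as lower). Their part in the results below was not tested, and in whole testis fewer cells of a type cannot be told apart from less RNA per cell. None of the 10 spermatogonia or 5 endothelial genes is in the table.

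Pvrl3 was the most abundant of the 5 expressed genes. WT library 1 had 100.5 RPKM and WT library 2 had 103, where labelled cKO library 1 had 71.8 and labelled cKO library 2 had 52.3. Both labelled cKO values lay below both WT values, and they differed more from each other than the WT values did. The table was selected for difference on these same libraries, and the share of its 988 genes without overlap was not computed. Nothing is therefore read from such separation here or below. The log2 fold change in the authors' deposited table is -0.71 (adjusted p = 0.0063). Fitted with limma over all 988 genes on the log2(RPKM + 1) scale, the difference was -0.72 ± 0.30 (SE) and did not pass the threshold of 0.05, with a Benjamini-Hochberg (BH) adjusted p of 0.0704.

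Grip1 was at 15.6 and 16.7 RPKM in WT and at 4.89 and 4.53 RPKM in the libraries labelled cKO. Relative to WT this was the largest difference among the 5 genes, with 30.4% and 28.1% of the WT mean left. The log2 fold change in the authors' deposited table is -1.77, where the median of the 925 genes listed as lower is -1.98. Of these 925, 514 have a more negative value than Grip1. In limma Grip1 fell by 1.58 ± 0.27 (SE) on the log2(RPKM + 1) scale, with a BH-adjusted p of 0.0177. Grip1 thus carried both a -50 point exon event and a lower level in the labelled cKO testis.

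Amotl1 encodes an angiomotin-like protein of tight junctions that binds polarity scaffolds and the coactivator Yap. It was the least abundant of the 5, at 6.64 and 7.22 RPKM in WT and 3.38 and 3.04 RPKM in the libraries labelled cKO. In limma it fell by 0.91 ± 0.27 (SE), with a BH-adjusted p of 0.0312.

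Ank2 encodes ankyrin-B, which couples membrane proteins to the spectrin skeleton. It was at 10.3 and 11.1 RPKM in WT and at 5.01 and 4.98 RPKM in the libraries labelled cKO, whose values almost coincided. In limma it fell by 0.96 ± 0.26 (SE), with a BH-adjusted p of 0.0266.

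Magi3 went the other way. It was at 11.5 and 11.6 RPKM in WT and at 19.1 and 18.7 RPKM in the libraries labelled cKO, with a narrow spread in each group. The log2 fold change in the authors' deposited table is 0.71 (adjusted p = 0.0036), less than that of 55 among the 63 genes listed as higher. The limma difference of 0.67 ± 0.26 (SE) did not pass (BH-adjusted p = 0.0616). Limma draws each gene's variance toward that of all tested genes, so this SE is wider than the spread of Magi3 alone.

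**Figure D3:**
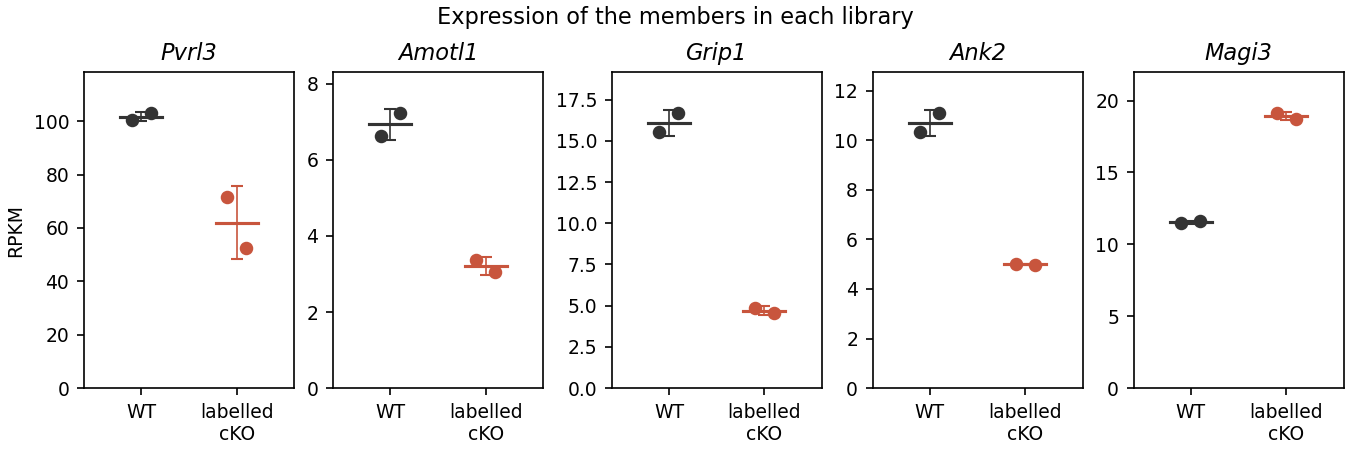
RPKM of the 5 members in the expression table, with a separate vertical axis from 0 for each gene, in WT libraries (dark) and libraries labelled cKO (red). Points are libraries 1 and 2 from left to right, the horizontal line is their mean and the bar is ± 1 SD (n = 2). Grip1, Ank2, Amotl1 and Pvrl3 have both labelled cKO values below both WT values, and Magi3 has both above. The genes were listed as different on these same libraries, so this separation does not set them apart.

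In all, limma called 3 of the 5 genes lower (Grip1, Amotl1 and Ank2), beside 83.9% of the 988 genes in the table, and 0 of the 5 higher (also 0 at an unadjusted p under 0.05), beside 1.92%. A share of 3 in 5 is not above that background, and the table had been selected for difference on the same libraries. With replicate number as a block, Grip1 alone of the 3 stayed called, and the calls of Amotl1 and Ank2 were lost. Without WT library 1 or WT library 2 the 3 calls were lost, though the differences moved little. They were -1.63 and -1.54 for Grip1, -0.97 and -0.86 for Amotl1, and -1.01 and -0.92 for Ank2. All 5 genes had the same SE of 0.89 in both fits, which thus cannot tell whether a call rests on 1 WT library. Without labelled cKO library 1 or 2 all 988 genes of the table passed, these 5 among them, so those fits set no gene apart. The order of mean levels in WT, from high to low, was Pvrl3, Grip1, Magi3, Ank2, Amotl1, and in the libraries labelled cKO it was Pvrl3, Magi3, Ank2, Grip1, Amotl1. The values of neighbouring genes in these orders did not overlap, though with 2 libraries this says little of their spread.

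Between the 2 libraries labelled cKO, spermatid genes differed widely and 4 of the 5 genes here differed little. The log2 ratio of labelled cKO library 2 to library 1 was -0.01 for Ank2, -0.03 for Magi3, -0.11 for Grip1 and -0.15 for Amotl1. For the 15 spermatid genes it had a median of -2.24 and ran from -3.33 to -0.29, and for all 925 lower genes the median was -0.92. For the 63 genes listed as higher, to which Magi3 belongs, the median was 0.45. Ank2, Grip1, Amotl1 and Magi3 were all slightly lower in library 2, the one with less spermatid RNA. Among the 925 genes listed as lower, 49, 73 and 87 had a higher ratio than Ank2, Grip1 and Amotl1. Pvrl3, at -0.46, was lower in library 2, with 225 of the 925 above it. These ratios compare single libraries and carry no error. Many of the lower genes also fell more from WT than these members did. The deposited log2 fold change was more negative than that of Ank2, Grip1 and Amotl1 in 740, 514 and 734 of the 925. Whether the ratio between the libraries follows the size of the fall was not tested.

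**Figure D4:**
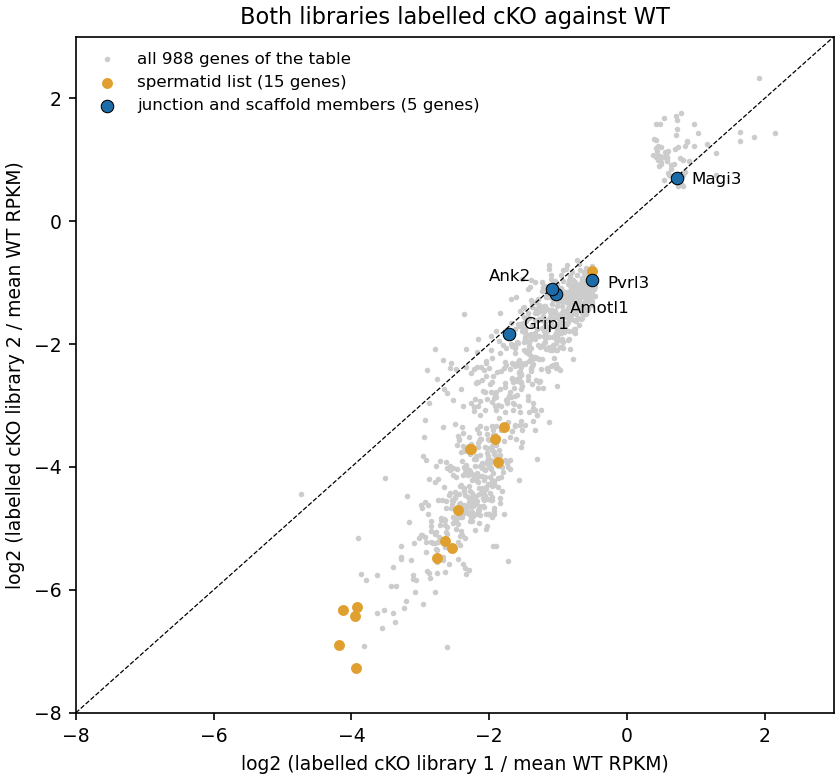
Log2 ratio of labelled cKO library 2 to the WT mean (vertical axis) against that of labelled cKO library 1 (horizontal axis) for the 988 genes of the table (grey), the 15 spermatid list genes (orange) and the 5 members (blue), with the dashed line marking equal values. Ank2, Grip1, Amotl1 and Magi3 lie near the line, and most spermatid genes lie far below it.

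A list of 145 genes of junctions, polarity and scaffolds, the 10 genes included, shows what else of these contacts is in the tables. Of the 145, 19 have a splicing event and 8 are in the expression table. Among the 135 genes beyond the 10, 12 have an event, with the largest event negative in 8 and positive in 4, and 3 reach 20 points. Over all 1223 events, 59.4% were negative and 21.0% reached 20 points, counted per event and not by the largest of each gene. The 12 genes were not tested against these shares. The 3 genes that reach 20 points encode linkers to the cytoskeleton, and nothing is read from so few. Epb4.1, a spectrin-binding protein gene of the red cell membrane skeleton, has a 63-nt cassette at -33, and Epb4.1l2, its relative, has a tandem cassette at -31.5. Dst, which encodes the plakin dystonin, has a 111-nt exon at 20. By role, an event was listed for 2 of 10 nectin-related genes, 6 of 32 polarity genes, 3 of 13 scaffolds, 4 of 17 membrane skeleton and plakin genes, 2 of 13 Rap1 pathway genes, 1 of 6 desmosome genes and 1 of 13 integrin adhesion genes. None was listed for the tight junction (18 genes), cadherin and catenin (12 genes), gap junction (4 genes) and ectoplasmic actin bundle (7 genes) groups. These counts include the 7 genes chosen for their events, and the groups were not tested against each other. Which genes were examined for splicing is not given, so a group without an event cannot be called unchanged.

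Beyond the 10 genes, the expression table holds Tln2, Cgn and Lamc3 from this list. Tln2, a talin that links integrins to actin, was at 11.41 and 11.37 RPKM in WT and at 4.32 and 4.68 RPKM in the libraries labelled cKO, and fell in limma by 1.17 ± 0.26 (SE; BH-adjusted p = 0.0184). Cgn, which encodes the tight junction protein cingulin, was at 15.3 and 14.7 RPKM in WT and at 20.5 and 34.9 RPKM in the libraries labelled cKO. Lamc3, a laminin chain found at the apical ectoplasmic specialization, was at 13.3 and 12.5 RPKM and at 18.1 and 27.1 RPKM. Neither passed in limma (BH-adjusted p = 0.0857 and 0.0787). Both were higher in labelled cKO library 2 than in library 1, as was the Sertoli gene Inha at 99.6 and 138 RPKM. Most genes listed as higher did the same: only 12 of the 63 were lower in library 2, and their median log2 ratio was 0.45. The 1 Leydig gene had a ratio of -0.05 and the 3 macrophage genes a median of -0.18. A link of Cgn and Lamc3 to a cell type was not tested. Over the 8 list genes the median limma difference was -0.82, and over all 988 genes it was -1.59. Limma called 4 of the 8 lower and 0 higher (4 and 0 at an unadjusted p under 0.05), beside 83.9% and 1.92% of the table, and 3 of the 4 are Grip1, Amotl1 and Ank2, chosen with these values known. Without WT library 1 or 2 the calls among the 8 were lost. Those fits gave all of them the same SE of 0.89 and cannot tell whether a call rests on 1 WT library. Leaving out either of the labelled cKO libraries gave 5 lower and 3 higher calls, in fits that called all 988 genes.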

How the data were processed

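Gene values are RPKM per library, computed by the authors per the file headers, for genes they had selected. The authors' deposited log2 fold changes and adjusted p-values are quoted as theirs, and their test is not given in the sources used here. ΔPSI, a score in percentage points per event, was also deposited by the authors. The submitters' processing notes name builds mm9 and mm10 without a role. Libraries were paired-end (ScriptSeq kit), per the labels' protocols.

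Event rows without a gene name (308) took the name above them. Coordinates were taken as mm9, counted from 0: of 725 cassettes in annotated genes, 695 have an annotated exon's length and 17 its GRCm38 coordinates. They are printed counted from 1. Exons were matched by length and spacing, and nothing was converted. Exon sequences of Scrib are not reported here.

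Levels were tested with limma 3.58.1 (R 4.3.3) on log2(RPKM + 1) over all 988 genes, without a block, at a BH-adjusted p of 0.05. Its SE for a gene draws on the variance of all 988 genes and is not the spread of that gene alone. The code was tested on simulated data with changes larger than those of the members, so the detection of changes of their size was not tested. This scale understates changes of low genes. Depth is unknown, since RPKM came without read totals, and no counting interval is given. With 2 mice against 2, an exact permutation p cannot go below 0.333. Figures used Python 3.11.15 and matplotlib 3.10.9.

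The 10 genes and all lists were chosen with earlier results of these data known. Values are given for all 10 genes, every event of each, list genes in the expression table, list genes with the 8 largest events, Ptbp2, Inha and Prm1, plus Dst, chosen after its value was seen. Alternatives covered pseudocounts, a low-value filter, a variance trend, a replicate block, synonyms and leaving out each library.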

Additional observations from a re-analysis of the deposited data

How the results depend on the processing

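No direction of a named gene reversed under any alternative. Leaving out 1 library at a time, where the lone library of a group is assumed to vary like the others, gave 353 to 925 lower and 0 to 63 higher genes (829 and 19 with all libraries; 0 and 1 higher at an unadjusted p under 0.05 without WT library 1 and 2), and 0 to 5 lower and 0 to 3 higher junction list genes. Among genes at or above the median RPKM, limma called 312 lower and 1 higher, with 0 of 3 junction list genes lower (0 at an unadjusted p under 0.05). The filter removed all 4 list genes called before, and leaves Pvrl3, Cgn and Lamc3. Whether the replicate numbers pair the libraries is not stated in the labels. Deviations of same-numbered libraries correlated at -0.331 across genes, but with 1 difference per genotype this cannot show whether they are paired. With the replicate block, 622 genes were lower and 2 higher, and 1 junction list gene was lower, Grip1, while the limma calls of Amotl1 and Ank2 (BH-adjusted p = 0.135 and 0.118) and of Tln2 were lost. With crossed numbers, an alternative chosen after seeing the data, 758 were lower and 10 higher, and 2 junction list genes were lower. The differences of the named genes were the same with either block as without one. Only the SE changed, to 0.57 for each of them with the replicate block and 0.47 with crossed numbers. Counting only events of 20 points or more left 10 of the 19 junction list genes with an event. Matching synonyms added 1, Sptan1 (listed as Spna2, at -7 and -6). The search for pyrimidine motifs in introns was not run, since no genome sequence was used here. RPKM without read totals gives no depth, which limits what can be said of low genes such as Amotl1.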

Other observations

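Mark2 and its paralog Mark3, another Par-1 family kinase, both have a 27-nt cassette exon in the splicing table, an observation made after their values were seen. ΔPSI was -27.5 for Mark2 and -12 for Mark3 (mm9 chr12:112890169-112890195). The exons are shown together because they are of equal length and occupy a similar place, after 80.4% of the annotated coding length in Mark2 and 81.6% in Mark3, and both begin after the second base of a codon. Without gaps, 21 of their 27 bases are identical (77.8%). Capitals mark the exon and lower case its neighbours.
Mark2 27-nt exon, GRCm38 chr19:7279986-7280012, minus strand: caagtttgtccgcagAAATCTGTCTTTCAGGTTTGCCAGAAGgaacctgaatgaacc
Mark3 27-nt exon, GRCm38 chr12:111651958-111651984, plus strand: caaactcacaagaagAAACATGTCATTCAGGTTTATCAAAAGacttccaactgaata
Of the 4 annotated protein-coding transcripts of Mark3, 1 includes this exon and 3 skip it. The table holds 40 cassettes of 27 nt or less, of which 10 have exactly 27 nt. A negative ΔPSI was listed for 35 of the 40 and for 385 of all 741 cassettes, and the difference was not tested.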
